A study of Mus musculus with 24 samples.

Results

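The collagen genes of mouse inner ear and cochlear organoids were taken as every row of the 2 gene count tables whose symbol consists of Col, a number, the letter a and a number. The rule found 44 genes among the 26373 gene symbols of the 2 tables, 44 of 18440 in the ageing table and 43 of 25190 in the organoid table, where Col10a1 has no row. They were sorted by the structure of their proteins into 11 fibrillar genes, 6 basement membrane genes (type IV), 9 FACIT genes (fibril-associated collagens with interrupted triple helices) and 18 other genes, which hold the beaded filament (type VI), network, anchoring fibril, transmembrane and multiplexin collagens. A filter on low counts left 40 genes for testing in the ear and 39 in the organoids. The genes not tested were Col10a1, Col17a1, Col6a4 and Col6a5 in the ear, and Col17a1, Col19a1, Col28a1 and Col6a5 in the organoids.

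Collagens are secreted proteins built of alpha chains wound into a triple helix, and most genes encode a single chain. Fibrillar collagens form the tension-bearing fibrils of connective tissue, FACIT collagens coat them, and type IV collagen forms the sheet-like network of basement membranes. In the cochlea, types II, IX and XI build the tectorial membrane, the gel that overlies the hair cells, together with non-collagenous glycoproteins, and the chains encoded by Col4a3, Col4a4 and Col4a5 line the basement membranes of several cochlear structures. Mutations of several of these genes, among them COL11A2, COL2A1, COL9A1 and COL4A5, cause hearing loss in humans.

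The study sequenced RNA from 12 inner ears and 12 organoid samples. The ears came from untreated wild-type male C57BL6/J mice of 3, 11 and 20 months, with 4 mice and 4 libraries per age, and the RNA was taken from the soft tissue left after the bone had been removed. The organoids were grown in a dilute basement membrane gel (Matrigel) from cochlear epithelium of wild-type mice on postnatal days 1 to 2, expanded with growth factors and then differentiated. Their 4 groups of 3 libraries were untreated control, TNF-α, RBM25 knockdown by lentivirus, and RBM25 knockdown with TNF-α. RBM25 binds RNA and regulates splicing. The titles of the knockdown libraries say KO while the treatment labels say knock down, and Rbm25 itself was lower but far from absent: it was at 23.4, 24.3 and 23.4 FPKM in control, 25.2, 27.1 and 29.1 with TNF, 17.0, 16.1 and 15.7 with knockdown, and 17.8, 21.1 and 18.5 with both. FPKM is the fragment count scaled by gene length and library size, a level per length that allows genes of one table to be compared. Rbm25 fell by 0.61 on the log2 scale with knockdown (SE 0.06, adjusted p = 1.01e-07). Tnf itself had 0 counts in control and knockdown and was at 0.666 to 0.78 FPKM with TNF and 0.997 to 1.37 with both. The dose and duration of TNF, a cytokine of inflammation, and any virus given to the control are not stated in the labels, and nothing says that organoid libraries came from separate cultures, so their p-values measure only the spread between these libraries.

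The ear libraries held 30599012 to 38451292 counts and the organoid libraries 33802411 to 37048422. The ear libraries carried the cochlear fibrocyte gene Coch at 1270 to 2910 FPKM and the hair cell gene Myo7a at 4.8 to 6.63 FPKM. They also carried varying amounts of other cells: the summed CPM (counts scaled to library size) of 12 bone cell markers ran from 2440 to 4430, that of 8 mucosal epithelium markers from 33.1 to 1020, and that of 11 marrow markers from 231 to 2880. The organoid libraries carried the epithelial gene Epcam at 346 to 489 FPKM and Otoa, a gene of cochlear supporting and border cells, at 274 to 951 FPKM. Acan, the defining cartilage proteoglycan, was listed at 0 in 11 of the 12 organoid libraries. In these bulk samples, fewer cells of a type and less RNA per cell cannot be told apart.

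Collagen transcripts made up 0.206 to 0.334% of all ear counts and 0.379 to 1.01% of organoid counts. In the ear the highest mean levels over the 12 libraries belonged to Col11a2, a chain of the fibrillar type XI collagen, at 99.4 FPKM, and to Col1a2, a chain of type I collagen, at 68.9 FPKM. They were followed by the FACIT genes Col9a2 at 47.8 and Col9a3 at 31.2 FPKM, by fibrillar Col27a1 at 20.7, by Col4a1 at 16.1, and by Col8a1, a network collagen, at 15.7 FPKM. Summed over genes, the fibrillar class gave 58.3% of collagen FPKM at 3 months (SD 2.16, n = 4), the FACIT class 24.0% (SD 1.94), the other class 9.73% (SD 0.941) and the basement membrane class 7.92% (SD 0.651). In control organoids the order of the first pair of classes was the reverse: FACIT genes gave 50.1% (SD 0.0211, n = 3) and fibrillar genes 40.3% (SD 0.342), while basement membrane genes gave 3.8% (SD 0.101) and the others 5.79% (SD 0.265). The leading organoid genes were Col9a2 at a mean of 420 FPKM over all 12 libraries, Col11a2 at 263, Col9a1 at 100, Col11a1 at 83.4 and Col9a3 at 69.9 FPKM. These are the type IX and type XI genes, whose proteins are components of the tectorial membrane. The 2 tables were scaled separately, so these levels rank genes within each table only.

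**Figure D1:**
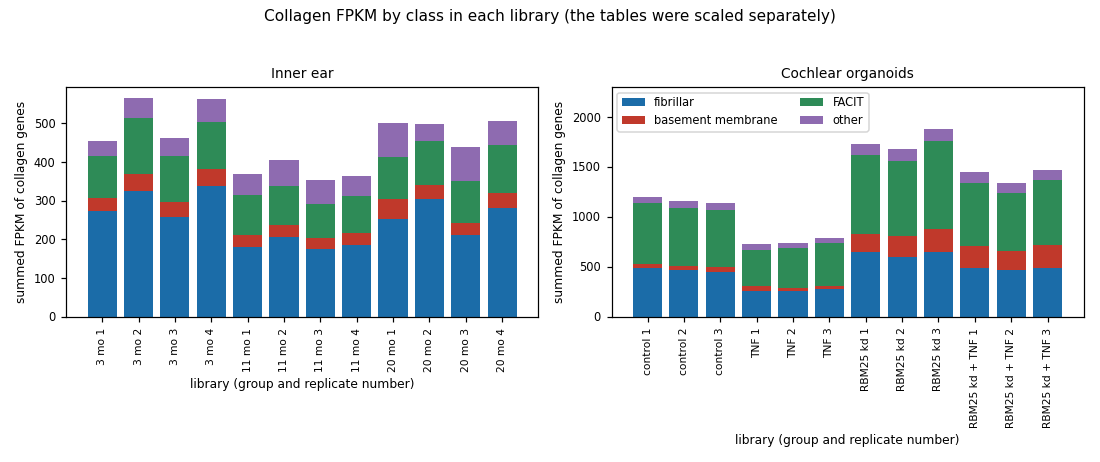
Summed FPKM of the collagen genes in each library (y axis), stacked by structural class, for the 12 inner ears (left) and the 12 organoid libraries (right); each bar is 1 library, named by its group and replicate number (kd, knockdown). The 4 ears of 11 months were the lowest of their table (353 to 406), and the organoid groups did not overlap: TNF 725 to 791, control 1140 to 1200, knockdown with TNF 1340 to 1470, and knockdown 1680 to 1880.

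The chains of 1 protein were not always at like levels per length. Col1a1 and Col1a2 encode the chains of type I collagen, the main fibril of bone and tendon. In the ear the FPKM of Col1a2 was 3.19 to 6.85 times that of Col1a1 at 3 months, 7.18 to 10.2 times at 11 months and 1.74 to 8.35 times at 20 months. In control organoids the ratio was 0.417 to 0.447. Col4a1 and Col4a2, which form one trimer, stayed closer: Col4a1 was 1.28 to 1.33 times Col4a2 at 3 months, and 0.984 to 1.07 times in control organoids.

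The ageing comparison asks which transcripts of the inner ear change between young, middle-aged and old mice. At 11 months, against 3 months, 7 of the 40 tested collagens were lower and 0 were higher, where 0.58% of all 15525 genes tested were lower and 0.979% higher (edgeR quasi-likelihood test, adjusted p under 0.05). At an unadjusted p under 0.05 in edgeR there were 21 lower and 3 higher, where 2808 of the 15525 genes passed in either direction. DESeq2 called 16 lower and 2 higher, and its share over all genes was not computed. The median log2 change over the tested collagens was -0.41, against -0.01 over all genes. The fibrillar class held 4 of the 7, and its median was -0.76. In 8 of its 11 genes every ear of 11 months was below every ear of 3 months. The share of all genes that separated in this way was not computed. The count of 7 collagens lower was not stable: leaving out any one of the ears compared lowered it, to between 1 and 5. It was 1 without 3-month replicate 4, or 11-month replicate 2, 3 or 4. Markers of other cells differed between the same ears. The summed CPM of 13 fibroblast and fibrocyte markers was 7880 to 10300 at 3 months and 5230 to 7790 at 11 months, without overlap. Singly, 0 of the 13 passed (median -0.36). The sum of 8 mesenchyme markers, most of them also among these 13, did not fall. It was 517 to 669 CPM at 3 months and 626 to 646 at 11 months, with 0 passing (median 0). The summed CPM of 8 brain glia and cerebellum markers was 136 to 388 and 763 to 938, with 1 of 6 tested higher (median 1.52, Gabra6 at 0 at 3 months). That of 9 macrophage markers was 141 to 182 and 282 to 321, with 3 higher. The part of all these markers in the collagen decrease was not tested.

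Col15a1, a multiplexin collagen that bridges basement membranes and fibrils of vessels, nerves and muscle, was the collagen with the smallest p. It was at 5.43, 5.63, 5.85 and 6.25 FPKM at 3 months, 1.81, 2.74, 1.93 and 2.19 at 11 months, and 4.18, 2.21, 2.48 and 2.7 at 20 months. The 3-month ears stood above all others without overlap. The decrease was 2.68-fold at 11 months (log2 -1.42, SE 0.18, adjusted p = 0.00424) and 2.06-fold at 20 months (log2 -1.04, SE 0.18, adjusted p = 0.002), and both calls were kept under each of the 14 alternatives run. Of 10 skeletal muscle markers 4 fell at 11 months and 3 at 20 months. The median log2 change of the 10 was -3.04 and -1.59. Their summed CPM, which the most abundant markers dominate, was 448 to 603 at 3 months, 519 to 573 at 11 months and 333 to 504 at 20 months. Acta1, the actin of muscle fibres, was at 2.71, 25.5, 3.13 and 10.2 FPKM at 3 months against 0.0828 to 0.25 at 11 months and 0.447 to 2.04 at 20 months. The part of muscle in the Col15a1 result was not tested.

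Among the fibrillar genes, Col11a2 was at 106, 146, 111 and 110 FPKM at 3 months, 72.8, 78.1, 56.1 and 74.8 at 11 months, and 97.0, 131, 82.1 and 127 at 20 months. The 11-month ears were below all other ears. Col11a2 fell by 0.76 on the log2 scale from 3 to 11 months (SE 0.16, adjusted p = 0.0369) and was 0.60 higher at 20 than at 11 months (SE 0.16, adjusted p = 0.0246). The difference between 20 and 3 months was -0.15 (SE 0.16) and did not pass the test. Its partner chain Col11a1 was at 10.3, 8.9, 7.17 and 9.87 FPKM at 3 months and 5.49 to 6.37 at 11 months, with no overlap (log2 -0.63, SE 0.14, adjusted p = 0.0483); the 20-month ears ran from 5.51 to 9.08. The Col11a2 call at 11 against 3 months was lost on leaving out any one of the 8 ears compared (adjusted p up to 0.112), and that at 20 against 11 months without 11-month replicate 3 or 20-month replicate 2 or 4 (up to 0.0814). The Col11a1 call was lost without any one ear but 3-month replicate 3 (up to 0.133).

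Col1a2 was at 79.3, 81.5, 69.8 and 107 FPKM at 3 months, 51.7, 61.4, 64.3 and 55.3 at 11 months, and 69.2, 67.4, 62.5 and 58.1 at 20 months. The 3-month ears stood above all others, and the 11- and 20-month ears overlapped. Col1a2 fell by 0.54 at 11 months (SE 0.12, adjusted p = 0.0384) and by 0.43 at 20 months (SE 0.12, adjusted p = 0.0186); the second call was lost without 20-month replicate 4 (adjusted p = 0.0563), the first without any one ear but 3-month replicate 3 (up to 0.105). Col1a1, which encodes the partner chain, was at 15.6, 11.9, 12.7 and 33.5 FPKM at 3 months, 5.4 to 8.58 at 11 months and 18.1, 38.6, 10.5 and 6.96 at 20 months. Its lower values at 11 months did not pass the test (log2 -1.40, adjusted p = 0.21), and the 20-month ears covered the whole range of the young. Bglap, the osteoblast gene of osteocalcin, ran alongside: 15.5 to 62.6 FPKM at 3 months, 0.636 to 1.16 at 11 months and 0.384 to 18.3 at 20 months, with 2 of 12 bone cell markers lower at 11 months, 3 at 20 months, and their summed CPM at 3950 to 4430, 2440 to 3450 and 2450 to 3820. The part of bone cells in the type I collagen values was not tested.

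Col5a2, a chain of the type V collagen that starts fibrils, was at 5.72, 5.67, 5.6 and 7.18 FPKM at 3 months, 3.7, 4.33, 4.27 and 4.07 at 11 months, and 5.91, 4.56, 4.24 and 4.86 at 20 months. It fell by 0.57 at 11 months (SE 0.11, adjusted p = 0.0262) and by 0.34 at 20 months (SE 0.11, adjusted p = 0.0346), where 1 old ear lay within the young range. The call at 11 months was lost without any one ear but 3-month replicate 3 (adjusted p up to 0.0797), and that at 20 months without 3-month replicate 1 or 4 or 20-month replicate 2, 3 or 4 (up to 0.0965). Of the other fibrillar genes, Col27a1 was at 22.6, 26.0, 15.1 and 19.8 FPKM at 3 months, 16.5, 21.1, 14.7 and 17.0 at 11 months, and 18.4, 24.6, 20.2 and 32.1 at 20 months, and passed no test. Col2a1, the main collagen of cartilage, ran from 9.2 to 25.6 FPKM over the 12 ears. Col2a1 was below its 3-month range in all 4 ears of 11 months (9.2 to 10.8 against 15.7 to 23.9), with a log2 change of -0.98 and an adjusted p of 0.0679.

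Col9a2, a chain of the type IX collagen that decorates type II fibrils, was at 43.0, 66.0, 57.7 and 53.6 FPKM at 3 months, 45.5, 39.1, 34.6 and 38.3 at 11 months, and 51.9, 48.8, 44.1 and 50.6 at 20 months. It fell by 0.49 at 11 months (SE 0.11, adjusted p = 0.0483), with 1 pair of ears overlapping, and the call was lost without any one ear but 3-month replicate 1 (adjusted p up to 0.162). Col9a3, its partner, was at 34.4 to 45.3 FPKM at 3 months and 23.2 to 27.1 at 11 months without overlap, and did not pass the test (log2 -0.54, adjusted p = 0.0518). Col16a1, the third FACIT gene by level, ran from 6.75 to 10.7, from 7.97 to 12.2 and from 8.57 to 11.2 FPKM and passed no test. Col4a3, a chain of the trimer that also holds Col4a4 and Col4a5, was at 1.5, 1.46, 1.71 and 1.51 FPKM at 3 months, 1.1, 0.999, 0.893 and 0.927 at 11 months, and 1.16, 1.45, 1.17 and 1.49 at 20 months. It was lowest at 11 months without overlap, with a log2 change of -0.66 from 3 months (SE 0.12, adjusted p = 0.022) and 0.40 from 11 to 20 months (SE 0.12, adjusted p = 0.0377). The first call was lost without 3-month replicate 4 or 11-month replicate 2, 3 or 4 (adjusted p up to 0.0809), the second without 11-month replicate 2, 3 or 4 or 20-month replicate 2 or 4. Exons of a gene on the opposite strand, C430014B12Rik, cover 5.65% of the Col4a3 exons, and the library kit does not mark strand.

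At 20 months, against 3 months, 4 of 40 collagens were higher and 3 lower, where 12% of all genes tested were higher and 10.7% lower, so the collagen shares were close to those of all genes. The median change of the collagens was -0.14. Beside the 3 lower genes given above (Col15a1, Col1a2 and Col5a2), the higher ones were Col12a1, Col13a1, Col4a6 and Col4a5. The number higher was 7 without 3-month replicate 4 and 9 without 20-month replicate 2. Of 9 macrophage markers 9 were higher than at 3 months (141 to 182 summed CPM at 3 months, 260 to 486 at 20 months). Of 6 neuron markers 5 were lower (5580 to 6980 and 3590 to 4790 CPM). The part of these cells in the collagen changes was not tested.

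Col12a1, a FACIT collagen of dense connective tissue, had the largest called increase. It was at 2.28, 2.24, 1.58 and 2.93 FPKM at 3 months, 4.86, 5.2, 6.48 and 5.27 at 11 months, and 5.0, 3.4, 9.69 and 7.63 at 20 months. All older ears stood above all young ears, and the 20-month ears varied most. The rise was 2.78-fold at 20 months (log2 1.48, SE 0.30, adjusted p = 0.00648), kept under each alternative run; at 11 months the log2 change was 1.27 (adjusted p = 0.059). Col13a1, a transmembrane collagen of cell contacts and the neuromuscular junction, was at 0.573, 0.555, 0.509 and 1.0 FPKM at 3 months, 1.02, 1.47, 1.17 and 0.934 at 11 months, and 1.87, 1.19, 1.45 and 1.68 at 20 months. The old ears stood above the young without overlap, 2.28-fold (log2 1.19, SE 0.23, adjusted p = 0.00352), again kept under each alternative run.

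**Figure D2:**
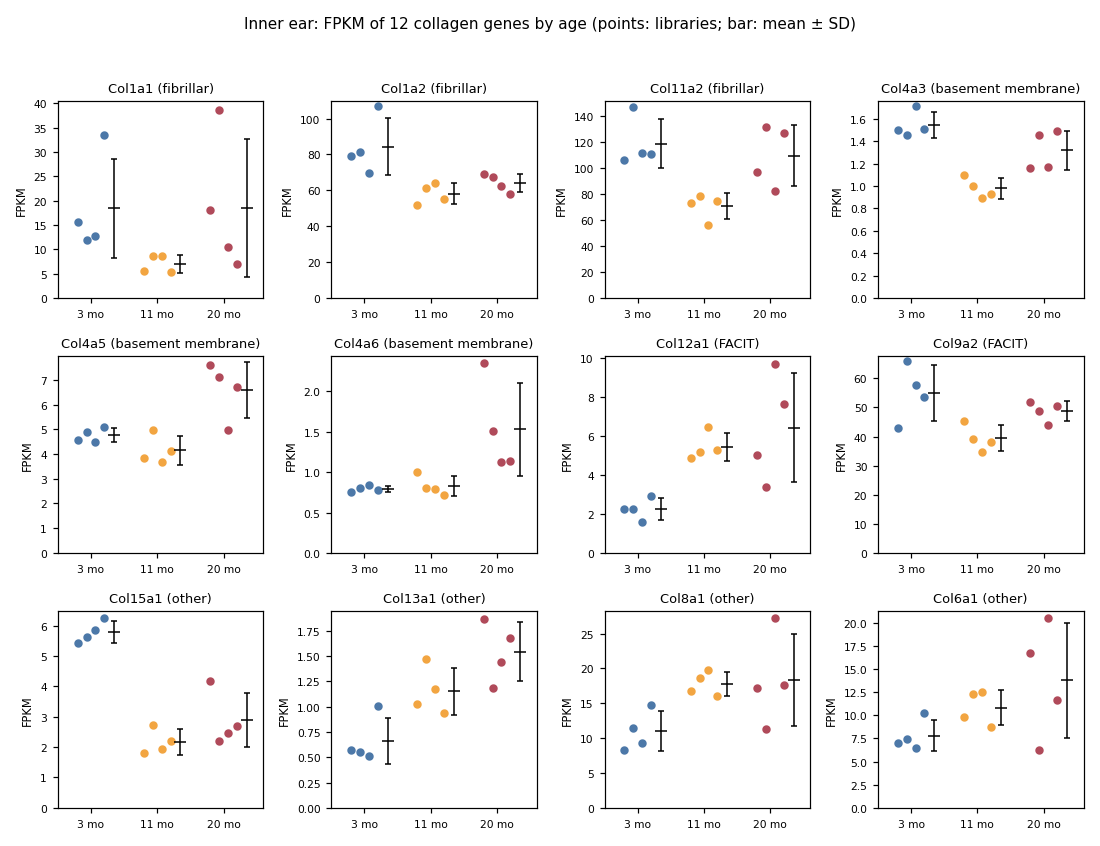
FPKM (y axis, from 0) of 12 collagen genes in inner ears of 3, 11 and 20 months (x axis); each point is 1 library, and the bar beside each group is its mean ± SD (n = 4). Col15a1 was highest at 3 months (5.43 to 6.25), Col12a1 lowest at 3 months (1.58 to 2.93), and Col11a2 lowest at 11 months (56.1 to 78.1), each without overlap.

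The type IV genes parted with age. Col4a1 and Col4a2, which encode the trimer found in nearly all basement membranes, passed no test between ages. Col4a1 was at 13.7, 19.3, 18.1 and 19.2 FPKM at 3 months, 14.3, 15.0, 12.8 and 13.9 at 11 months, and 22.4, 13.6, 14.1 and 16.3 at 20 months; Col4a2 ran from 8.94 to 15.2 over the 12 ears. Col4a5 was at 4.58, 4.89, 4.51 and 5.11 FPKM at 3 months, 3.82, 4.97, 3.66 and 4.13 at 11 months, and 7.61, 7.11, 4.99 and 6.71 at 20 months. It was 1.35-fold higher at 20 than at 3 months (log2 0.43, SE 0.12, adjusted p = 0.0223), with 1 old ear inside the young range, and 1.56-fold higher at 20 than at 11 months (log2 0.64, SE 0.12, adjusted p = 0.00912), with no overlap. Col4a6, its partner in smooth muscle and epithelial basement membranes, was at 0.75, 0.802, 0.846 and 0.776 FPKM at 3 months, 1.0, 0.798, 0.792 and 0.717 at 11 months, and 2.35, 1.51, 1.12 and 1.14 at 20 months. The old ears stood above all others: 1.88-fold above 3 months (log2 0.91, SE 0.21, adjusted p = 0.00986) and 1.81-fold above 11 months (log2 0.85, SE 0.21, adjusted p = 0.0208). The Col4a5 call against 3 months was lost without 3-month replicate 1 or 3 or 20-month replicate 1, 2 or 4 (adjusted p up to 0.0733), and the Col4a6 call against 11 months without 11-month replicate 2, 3 or 4 or 20-month replicate 1 (up to 0.0649). In the old ears the 12 supporting and cochlear epithelial markers summed to 1430 to 2170 CPM against 1180 to 1480 at 3 months and 956 to 1370 at 11 months, with 5 of 12 higher at 20 than at 11 months, and the mucosal markers reached 971 and 1020 CPM in replicates 1 and 2; their part was not tested.

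Between 11 and 20 months 5 of 40 collagens were higher and 0 lower, where 7.87% of all genes were higher and 7.9% lower. At an unadjusted p under 0.05 there were 11 higher and 0 lower in edgeR, where 5109 of the 15525 genes tested passed in either direction. DESeq2 called 7 higher and 0 lower, and its share over all genes was not computed. Of the 40 changes 36 were positive, against 55.1% over all genes, and the median was 0.32, against 0.03. The 5 were Col4a5, Col4a6, Col4a3 and Col11a2, given above, and Col25a1, a transmembrane collagen of neurons, at 0.594, 1.1, 0.546 and 0.898 FPKM at 11 months and 2.17, 1.7, 1.09 and 1.16 at 20 months (log2 0.93, SE 0.28, adjusted p = 0.0442), with overlap; this call was lost without any one of 11-month replicates 1, 3 and 4 and 20-month replicates 1, 2 and 4 (up to 0.133). The count fell to 1 without 11-month replicate 3 and to 2 without 11-month replicate 4 or 20-month replicate 2 or 4; it was 3 without 11-month replicate 2 or 20-month replicate 1, and rose to 9 without 20-month replicate 3. The Col25a1 and Col4a3 calls were also lost without the count filter and with the replicate number as a block. The same happened with only the libraries compared and with limma on log2(FPKM + 1). Of 6 neuron markers 6 were lower at 20 than at 11 months (3590 to 4790 and 5650 to 6310 summed CPM), and their part was not tested. The 11-month libraries are common to this comparison and to that with 3 months, so a gene low at 11 months weighs on both.

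The type VI genes Col6a1 and Col6a2, whose protein forms beaded filaments around cells, were more scattered in old ears than in the younger ones. Col6a1 was at 7.02, 7.47, 6.44 and 10.3 FPKM at 3 months, 9.82, 12.3, 12.5 and 8.75 at 11 months, and 16.7, 6.27, 20.5 and 11.6 at 20 months. Col6a2 ran from 3.64 to 7.34, from 6.03 to 7.89 and from 3.27 to 13.6 FPKM. Neither passed a test (adjusted p = 0.0903 and 0.149 at 20 against 3 months). Without 20-month replicate 2, the lowest old library, Col6a1 passed (log2 1.03, adjusted p = 0.00694). Col8a1, a network collagen of vessels and the eye, was at 8.31, 11.5, 9.36 and 14.8 FPKM at 3 months, 16.7, 18.6, 19.7 and 16.0 at 11 months, and 17.2, 11.3, 27.3 and 17.6 at 20 months, with an adjusted p of 0.0595 at 20 against 3 months and of 0.0139 without the same library. Col23a1, a transmembrane collagen, ran from 4.73 to 11.7 FPKM over the 12 ears and passed no test. Of all 40 tested collagens, 28 passed no comparison between ages, and the share of all genes that passed none was not computed.

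**Figure D3:**
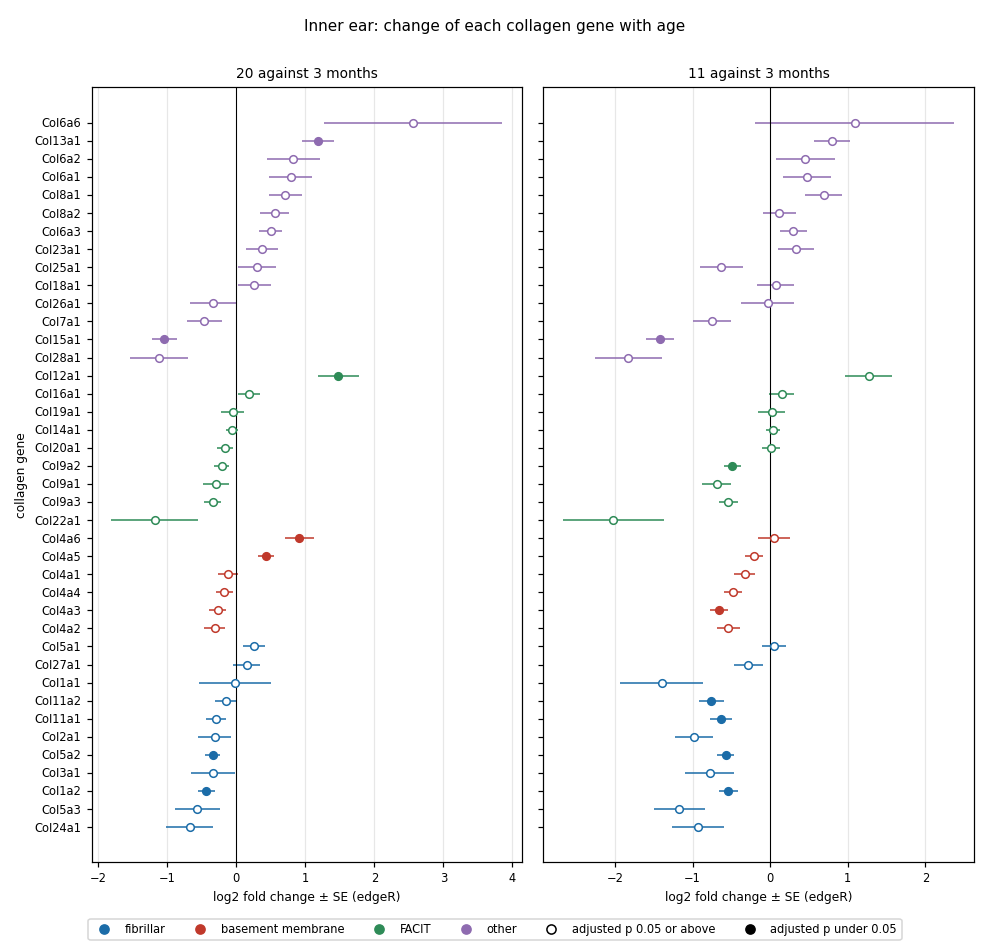
Log2 fold change ± SE (x axis, edgeR) of each of the 40 tested collagen genes (y axis) in inner ears of 20 against 3 months (left) and 11 against 3 months (right); colours give the structural class and filled points have an adjusted p under 0.05. At 11 months 10 of the 11 fibrillar genes lie left of 0, and at 20 months the filled points lie on both sides.

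The knockdown comparison asks what lowering RBM25 does to organoid transcripts. Collagen genes rose broadly: 18 of 39 were higher and 1 lower with knockdown, where 24.4% of all 15888 genes tested were higher and 28.2% lower. The median collagen change was 1.23 on the log2 scale, against -0.03 over all genes. Of the called collagens 14 changed at least 2-fold, and the share of all genes that did so was not computed. By class, 4 of 6 basement membrane genes, 5 of 11 fibrillar, 4 of 8 FACIT and 5 of 14 other genes were higher. Leaving out single libraries left 16 to 20 higher. In organoids treated with TNF, knockdown raised 24 of 39 and lowered 1, where 25.4% of all genes were higher and 26.9% lower; the median was 0.99. All 6 basement membrane genes and 8 of 11 fibrillar genes were among them. In both knockdown comparisons, which share no library, 17 collagens were higher, and the share of all genes higher in both was not computed. Markers of several cell types also moved with knockdown. Of 10 hair cell markers 8 were higher and 1 lower (369 to 383 summed CPM in control, 563 to 804 with knockdown), of 4 tested neuron markers 3 were higher (12.8 to 13.9 and 42.2 to 62 CPM), of 7 tested endothelial and pericyte markers 2 were higher (2.95 to 3.91 and 7.64 to 12.3 CPM, Cldn5 at 0 in control), and of 10 tested fibroblast and fibrocyte markers 4 were higher and 3 lower (140 to 145 and 139 to 183 CPM, Pi16 at 0 in both). Of 3 tested mucosal epithelium markers 1 was higher (7.15 to 7.46 and 40.7 to 47 CPM, Bpifb1 and Muc5b at 0 in both). The part of all these markers in the collagen result was not tested.

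Among basement membrane genes Col4a1 and Col4a2 had the largest folds with knockdown. They lie head to head on chromosome 8, in GRCm38 Col4a1 at 11198423 to 11312889 on the minus strand and Col4a2 at 11312805 to 11449287 on the plus strand, so that their starts overlap. Col4a1 was at 11.0, 10.0 and 10.4 FPKM in control, 12.8, 7.43 and 7.39 with TNF, 70.4, 79.4 and 87.8 with knockdown, and 89.8, 75.3 and 99.9 with both. Both knockdown groups stood far above both others. The rise was 7.22-fold without TNF (log2 2.85, SE 0.23, adjusted p = 7.13e-06) and 9.33-fold with TNF (log2 3.22, SE 0.23, adjusted p = 3.8e-06). Col4a2 moved alike, from 10.3, 9.97 and 10.6 FPKM to 61.3, 71.4 and 76.9 with knockdown, 6.49-fold (log2 2.70, SE 0.22, adjusted p = 8.82e-06). With TNF it was at 10.3, 5.91 and 6.36, and with both at 69.6, 56.2 and 76.6 FPKM. The Col4a1 to Col4a2 ratio stayed between 0.984 and 1.34 in all 12 libraries.

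Col4a5 and Col4a6 form a second head-to-head pair, on chromosome X, with 1274 bases between them. Col4a5 was at 21.2, 19.7 and 20.0 FPKM in control, 18.6, 17.6 and 18.7 with TNF, 49.5, 48.9 and 51.8 with knockdown, and 53.7, 56.2 and 53.1 with both. Its rise with knockdown, 2.35-fold, had a small error (log2 1.24, SE 0.05, adjusted p = 2.59e-13), and it was 2.89-fold in TNF-treated organoids (log2 1.53, SE 0.05). Col4a6 was at 0.57, 0.511 and 0.473 FPKM in control, 0.515, 0.777 and 0.442 with TNF, 2.75, 2.59 and 2.98 with knockdown, and 2.92, 2.55 and 2.56 with both. It rose 5.1-fold (log2 2.35, SE 0.16, adjusted p = 1.19e-09) and, under TNF, 4.49-fold (log2 2.17, SE 0.15). The third pair, Col4a3 and Col4a4 on chromosome 1, did not pass the test with knockdown alone (log2 0.03 and 0.11).

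Since Col4a5 and Col4a6 rose together and start on either side of 1 short stretch, the sequence before each start is shown, with that of Col5a3, the fibrillar gene with the largest called rise with knockdown. Each is 200 bases long, covering bases 250 to 51 before the transcript start used in the RefSeq promoter table (build GRCm38.p6), lies outside annotated exons, and is written 5′ to 3′ on the gene's own strand; capitals mark CCAAT and GGGCGG on either strand (reverse complements ATTGG and CCGCCC), which do not overlap here. Col4a5 is at chrX:141475169-141475368 on the plus strand, Col4a6 at chrX:141474127-141474326 on the minus strand and Col5a3 at chr9:20815118-20815317 on the minus strand.
Col4a5: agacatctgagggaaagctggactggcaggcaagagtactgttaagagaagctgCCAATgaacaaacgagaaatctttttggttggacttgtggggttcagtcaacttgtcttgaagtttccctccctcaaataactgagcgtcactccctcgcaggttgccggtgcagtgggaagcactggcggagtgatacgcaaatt
Col4a6: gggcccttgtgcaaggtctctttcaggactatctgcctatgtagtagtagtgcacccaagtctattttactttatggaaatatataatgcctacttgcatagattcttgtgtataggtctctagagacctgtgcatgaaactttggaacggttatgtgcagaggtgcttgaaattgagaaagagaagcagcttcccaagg
Col5a3: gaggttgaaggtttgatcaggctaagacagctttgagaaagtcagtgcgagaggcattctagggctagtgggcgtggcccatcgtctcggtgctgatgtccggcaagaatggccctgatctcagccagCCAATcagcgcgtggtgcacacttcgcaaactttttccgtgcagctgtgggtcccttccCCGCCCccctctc

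Col4a5 holds 1 CCAAT, Col4a6 neither motif, and Col5a3 1 of each; GC content was 49.5%, 42.5% and 58%. A promoter window was in the table for 35 of the collagens. In the same 200 bases, GGGCGG was found in 17 of these 35 (48.6%) and in 24.5% of all 27025 genes with a window, CCAAT in 28.6% against 28.9%, and TATAAA in 11.4% against 9.48%, on either strand. A match is a run of letters and says nothing of binding.

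**Figure D4:**
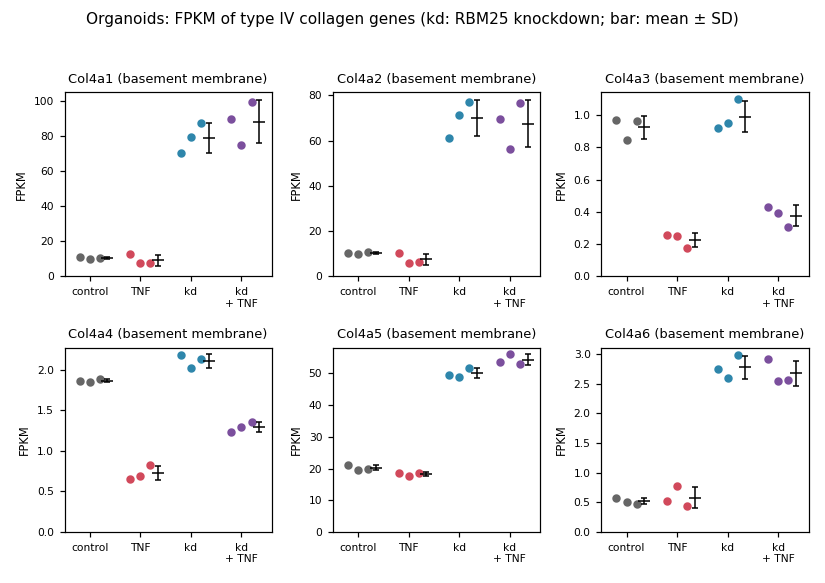
FPKM (y axis, from 0) of the 6 type IV collagen genes in the 4 organoid groups (x axis; kd, RBM25 knockdown); each point is 1 library, and the bar beside each group is its mean ± SD (n = 3). Col4a1, Col4a2, Col4a5 and Col4a6 were high in both knockdown groups, while Col4a3 (0.179 to 0.257 with TNF alone) and Col4a4 were low in both TNF groups.

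Among fibrillar genes the knockdown raised the type V chains, which nucleate fibrils. Col5a1 was at 1.77, 1.74 and 1.78 FPKM in control, 2.14, 1.31 and 1.16 with TNF, 7.56, 9.07 and 9.8 with knockdown, and 7.0, 7.0 and 6.74 with both, a 4.78-fold rise without TNF (log2 2.26, SE 0.20, adjusted p = 7.53e-06). Col5a2 went from 0.549, 0.497 and 0.54 FPKM to 1.65, 1.89 and 2.24 with knockdown (log2 1.80, SE 0.40, adjusted p = 0.0043); it was at 0.374 to 0.855 with TNF and 1.58 to 4.22 with both. Col5a3 went from 0.164, 0.248 and 0.223 to 1.25, 1.15 and 1.66 FPKM (log2 2.60, SE 0.24, adjusted p = 6.63e-08), and from 0.157, 0.072 and 0.0679 with TNF to 1.15, 0.859 and 0.98 with both, 9.71-fold (log2 3.28, SE 0.27). In all 3 genes the knockdown groups stood above the control and TNF groups without overlap.

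Col2a1 was at 8.97, 7.96 and 8.28 FPKM in control, 5.16, 6.29 and 4.21 with TNF, 80.3, 30.0 and 44.6 with knockdown, and 22.3, 18.0 and 25.5 with both. The knockdown libraries were all higher but spread widely, with replicate 1 at 80.3 FPKM (log2 2.55, SE 0.35, adjusted p = 0.000287). The 7 chondrocyte markers summed to 344 to 350 CPM in control and 243 to 281 CPM with knockdown; of the 3 that could be tested 1 was higher and 1 lower, with a median of 0.49, and Acan was at 0 in both groups. Their part in the Col2a1 result was not tested. Col11a1 rose less and with less spread, from 61.9, 60.8 and 58.7 FPKM to 114, 119 and 126 (log2 0.92, SE 0.06, adjusted p = 1.99e-10). Its partner chain Col11a2 did not change detectably with knockdown alone: it was at 344, 329 and 317 FPKM in control and 346, 327 and 349 with knockdown (log2 -0.02, SE 0.07, adjusted p = 0.818). The ratio of Col11a2 to Col11a1 was 5.39 to 5.56 in control and 2.75 to 3.02 with knockdown. Col27a1, a fibrillar collagen of cartilage and developing cochlea, was at 60.5, 61.0 and 57.5 FPKM in control and 71.5, 67.5 and 69.9 with knockdown; the groups did not overlap, but the test was not passed (log2 0.16, adjusted p = 0.15). Col24a1, a fibrillar gene of bone, passed under TNF, rising from 0.183, 0.0898 and 0.0831 to 0.663, 0.858 and 0.214 FPKM (log2 2.24, SE 0.46, adjusted p = 0.00115); without TNF the log2 change was 0.90 (adjusted p = 0.134).

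Type I and type III genes were too scattered for the test. Col1a1 was at 2.69, 2.48 and 2.8 FPKM in control, 10.5, 0.158 and 1.19 with TNF, 5.18, 14.9 and 16.5 with knockdown, and 23.0, 27.2 and 10.6 with both. Every knockdown library was above every control, yet log2 2.14 had an adjusted p of 0.123. Col1a2 (log2 2.68, adjusted p = 0.075) and Col3a1 (log2 1.95, adjusted p = 0.079), the latter a fibrillar collagen of soft tissue, showed the same. TNF replicate 1 stood apart from the other TNF libraries for these genes, with Col3a1 at 17.6 against 1.21 and 2.02 FPKM and Col1a2 at 7.86 against 0.358 and 0.826. In that library the 10 endothelial and pericyte markers summed to 49.2 CPM against 16 and 19.5 in the other TNF libraries, and Coch was at 21.5 against 5.52 and 12.7 FPKM. In the libraries with knockdown and TNF, the bone gene Ibsp was at 27.7, 51.2 and 0.238 FPKM, while it was at 0 to 0.0145 in the other 9 organoid libraries. Of 8 mesenchyme markers, none at 0 in a group, 4 were higher and 2 lower with knockdown and 3 were higher with TNF; their summed level was 191 to 197 CPM in control, 361 to 448 with TNF, 348 to 461 with knockdown and 781 to 833 with both, and that of the 12 supporting and epithelial markers was 9300 to 9480, 6590 to 6900, 8070 to 8990 and 5360 to 5850. All mesenchyme markers but Vim and Snai2 are also among the 13 fibroblast and fibrocyte markers. Those 13 summed to 140 to 145 CPM in control, 153 to 242 with TNF, 139 to 183 with knockdown and 170 to 218 with both. Most of the mesenchyme sum with both therefore came from Vim and Snai2. The part of mesenchymal cells in the collagen results was not tested.

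The FACIT genes rose less. Col9a1 was at 81.7, 80.5 and 78.5 FPKM in control and 184, 158 and 190 with knockdown (log2 1.08, SE 0.08, adjusted p = 2.08e-08). Col9a3 was at 48.0, 47.1 and 48.3 and rose to 79.3, 71.3 and 83.0 (log2 0.64, SE 0.07, adjusted p = 2.57e-06). Col9a2, the most abundant collagen transcript per length, was at 457, 438 and 426 in control and 514, 509 and 595 with knockdown, a 1.17-fold rise at the edge of the threshold (log2 0.23, SE 0.09, adjusted p = 0.0499) that was lost without any one of the control libraries or knockdown replicate 3 (up to 0.225). The 3 type IX chains, which form 1 trimer, changed by unequal amounts: the ratio of Col9a2 to Col9a1 was 5.43 to 5.59 in control and 2.79 to 3.23 with knockdown. Col12a1 went from 0.82, 1.0 and 1.12 to 1.99, 2.39 and 3.12 FPKM (log2 1.28, SE 0.18, adjusted p = 0.000152). Col20a1, a little-studied FACIT collagen, was the 1 collagen lower with knockdown: it was at 2.83, 2.53 and 2.56 FPKM in control, 1.9, 1.51 and 1.61 with TNF, 1.6, 1.46 and 1.34 with knockdown, and 0.966, 1.07 and 0.936 with both. Knockdown lowered it 1.89-fold (log2 -0.92, SE 0.10, adjusted p = 5.83e-07) and, under TNF, 1.74-fold (log2 -0.80, SE 0.11).

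Among the other genes, Col18a1, the multiplexin of epithelial and vascular basement membranes, was at 59.9, 57.4 and 60.1 FPKM in control, 35.3, 39.1 and 43.4 with TNF, 91.1, 92.0 and 96.0 with knockdown, and 80.2, 76.0 and 78.5 with both. Each group stood apart, and knockdown raised it 1.5-fold (log2 0.59, SE 0.06, adjusted p = 2.59e-07). Col15a1, the other multiplexin, had the largest called fold, from 0.257, 0.381 and 0.32 to 1.93, 2.45 and 4.19 FPKM (log2 3.09, SE 0.61, adjusted p = 0.00229). With TNF it was at 0.485, 0.031 and 0.146 and with both at 0.929, 0.992 and 0.818 FPKM. Knockdown under TNF passed (log2 2.00, SE 0.64, adjusted p = 0.028), a call lost without TNF replicate 3 or any one library of the group with both (up to 0.0888). That call was also lost with the replicate number as a block and with only the libraries compared. Col26a1 was at 1.76, 1.7 and 1.94 in control and 4.12, 3.76 and 5.37 with knockdown (log2 1.23, SE 0.18, adjusted p = 5.19e-05). Col6a6, a type VI chain, was at 1.17, 1.09 and 1.36 in control and 2.73, 3.15 and 3.6 with knockdown (log2 1.32, SE 0.27, adjusted p = 0.00236). Col6a1 was at 1.37, 1.0 and 1.43 FPKM in control, 9.84, 2.96 and 2.39 with TNF, 3.41, 5.68 and 7.18 with knockdown, and 13.7, 14.3 and 10.8 with both. Its rise with knockdown (log2 2.03, SE 0.59, adjusted p = 0.0192) was lost without control replicate 1 or 2 or knockdown replicate 3. Col7a1, the anchoring fibril collagen of epithelia, stayed between 0.97 and 1.58 FPKM in all 12 libraries and passed no test.

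Under TNF, knockdown raised 7 collagens that did not pass without it: Col11a2, Col22a1, Col24a1, Col27a1, Col4a3, Col4a4 and Col6a4. The share of all genes with this pair of outcomes was not computed. Col4a4 was 1.73-fold higher (log2 0.79, SE 0.09, adjusted p = 6.27e-07), Col4a3 1.6-fold (log2 0.68, SE 0.17, adjusted p = 0.00307), Col22a1 3.7-fold (log2 1.89, SE 0.23, adjusted p = 1.73e-06) and Col27a1 1.34-fold (log2 0.42, SE 0.09, adjusted p = 0.000912). The difference between the knockdown effects with and without TNF passed its own test for Col11a2 and Col4a4. It did not for Col4a3 (adjusted p = 0.0725), Col27a1 (0.183), Col24a1 (0.223), Col22a1 (0.572) and Col6a4 (0.952).

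**Figure D5:**
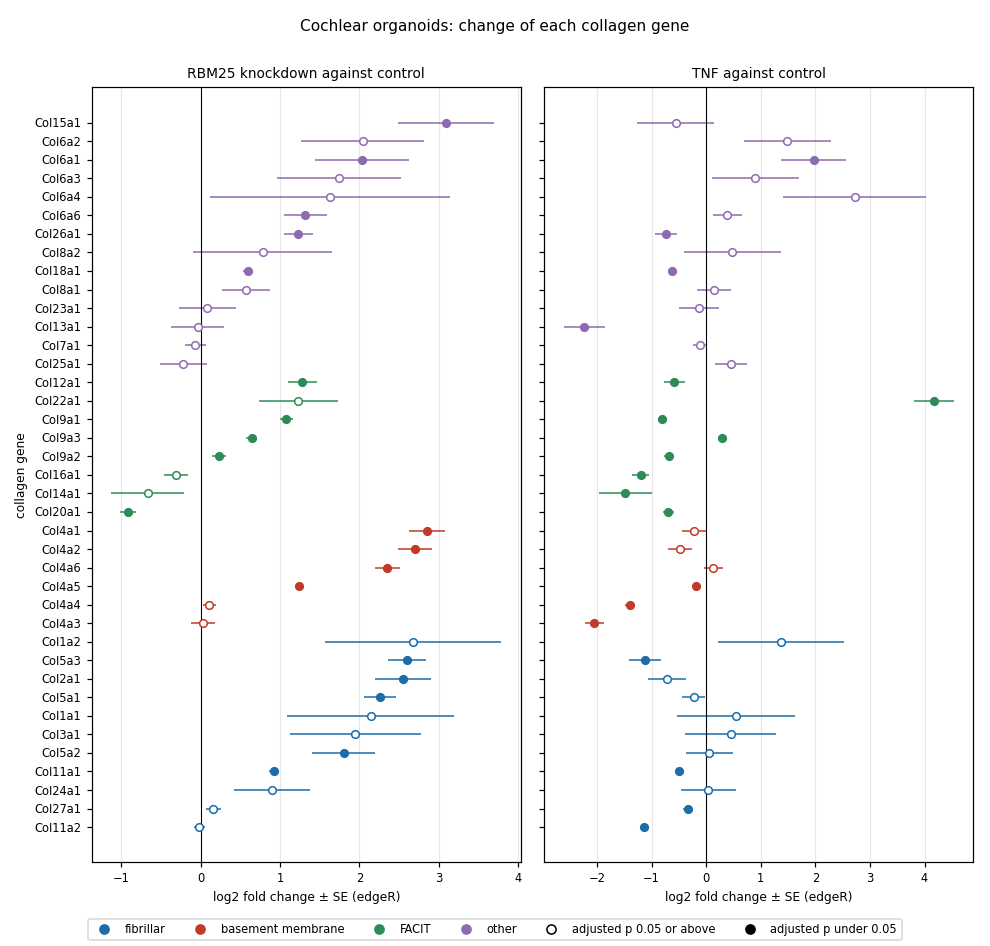
Log2 fold change ± SE (x axis, edgeR) of each of the 39 tested collagen genes (y axis) in organoids with RBM25 knockdown (left) and with TNF (right), both against the same 3 control libraries; colours give the structural class and filled points have an adjusted p under 0.05. With knockdown 18 of the 19 filled points lie right of 0; with TNF 16 of 19 lie left of 0.

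The TNF comparison asks what the cytokine does to the same organoids. With TNF, 16 of 39 collagens were lower and 3 higher, where 24.2% of all genes were lower and 23.3% higher, and the median change was -0.22. FACIT genes led the decrease, with 6 of 8 lower, followed by 3 of 6 basement membrane, 4 of 11 fibrillar and 3 of 14 other genes. Without TNF replicate 1, the library that stood apart, 21 were lower and 3 higher. In knockdown organoids TNF lowered 12 and raised 4, where 22% of all genes were lower and 22.8% higher. In both TNF comparisons, which share no library, 10 collagens were lower, and the share of all genes lower in both was not computed. The TNF and the knockdown comparison share the control libraries, so their values are given side by side without a test of their relation.

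The type IV chains of the Col4a3, Col4a4 and Col4a5 trimer responded to TNF unequally. Col4a3 was at 0.968, 0.843 and 0.967 FPKM in control, 0.257, 0.248 and 0.179 with TNF, 0.921, 0.951 and 1.1 with knockdown, and 0.432, 0.394 and 0.305 with both. TNF lowered it 4.14-fold without knockdown (log2 -2.05, SE 0.17, adjusted p = 1.01e-08) and 2.64-fold with it (log2 -1.40, SE 0.16, adjusted p = 8.81e-07). Col4a4 was at 1.86, 1.85 and 1.88 FPKM in control, 0.659, 0.695 and 0.826 with TNF, 2.18, 2.02 and 2.13 with knockdown, and 1.23, 1.3 and 1.35 with both, with each group apart from the TNF groups. It fell 2.62-fold with TNF (log2 -1.39, SE 0.09, adjusted p = 3.11e-10). Col4a5 fell by 0.18 only (SE 0.05, adjusted p = 0.00356). Col4a1 and Col4a2 did not pass (log2 -0.22 and -0.48), but did without TNF replicate 1 (log2 -0.51, adjusted p = 0.0149, and -0.75, adjusted p = 0.00429).

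The type IX and XI genes of the tectorial membrane also fell, apart from Col9a3. Col11a2 dropped to 137, 156 and 168 FPKM with TNF, 2.19-fold below its control level given above (log2 -1.13, SE 0.07, adjusted p = 2.83e-10), and to 234, 211 and 243 FPKM with both, 1.49-fold below knockdown alone (log2 -0.58, SE 0.07). Col11a1 was at 41.4, 46.0 and 44.5 with TNF (log2 -0.49, SE 0.06, adjusted p = 1.02e-06). Col9a1 fell to 46.7, 52.7 and 41.6 FPKM with TNF (log2 -0.80, SE 0.08, adjusted p = 7.61e-07) and to 97.4, 99.8 and 90.4 with both. Col9a2 fell to 243, 281 and 317 with TNF (log2 -0.68, SE 0.09, adjusted p = 2.17e-05) and to 429, 386 and 445 with both. Col9a3 went the other way, to 61.5, 55.3 and 61.8 FPKM with TNF and 95.4, 83.9 and 104 with both, a 1.22-fold rise without knockdown (log2 0.29, SE 0.07, adjusted p = 0.00436) and 1.21-fold with it (log2 0.27, SE 0.07, adjusted p = 0.00597). Exons of Tcfl5, on the opposite strand, cover 6.07% of the Col9a3 exons, and reads of these genes cannot be told apart there. The ratio of Col9a2 to Col9a3 was 8.83 to 9.51 in control and 3.95 to 5.13 with TNF.

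The largest TNF response among collagens was that of Col22a1, a FACIT collagen known from myotendinous junctions. It had 4, 3 and 1 counts in control, 54, 55 and 48 with TNF, 4, 8 and 8 with knockdown, and 199, 213 and 189 with both. The fitted rise was 18-fold without knockdown (log2 4.17, SE 0.37, adjusted p = 2.96e-08) and 28.6-fold with it (log2 4.84, SE 0.30, adjusted p = 2.09e-10). As a ratio of summed counts per depth the rise without knockdown was 19.2, with a 95% exact binomial interval of 9.52 to 45.3 that covers counting error only. It remained a rare transcript, at 0.564 to 0.641 FPKM in its highest group. Col6a4, a type VI chain, had 0, 1 and 0 counts in control, 5, 3 and 1 with TNF, 0, 0 and 4 with knockdown, and 17, 13 and 15 with both. Knockdown raised it under TNF (ratio of counts 4.99, 95% interval 2.41 to 11.6, adjusted p = 0.0122), as did TNF under knockdown (ratio 11, interval 4 to 42, adjusted p = 0.00248). The first call was lost without TNF replicate 3, with DESeq2 and with limma on log2(FPKM + 1).

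TNF also lowered other collagen genes. Col16a1, a FACIT collagen, was at 11.2, 10.6 and 10.8 FPKM in control, 6.28, 3.95 and 4.25 with TNF, 8.27, 9.24 and 9.99 with knockdown, and 5.02, 4.39 and 4.92 with both (TNF against control, log2 -1.20, SE 0.15, adjusted p = 0.000103). Col13a1 was at 0.295, 0.236 and 0.277 FPKM in control and 0.102, 0.0299 and 0.0429 with TNF, from 54 to 68 counts down to 7 to 24 (log2 -2.23, SE 0.38, adjusted p = 8.7e-05), and its change under knockdown was as large (log2 -2.23, SE 0.38). Col18a1 fell by 0.62 (SE 0.06, adjusted p = 1.63e-07). Col14a1, at 1.2 to 1.65 FPKM in control and 0.422 to 0.737 with TNF, passed with a larger error (log2 -1.48, SE 0.48, adjusted p = 0.0319). Also lower were Col5a3 (log2 -1.12, SE 0.30), Col26a1 (log2 -0.74, SE 0.20), Col20a1 (log2 -0.69, SE 0.10), Col12a1 (log2 -0.58, SE 0.20) and Col27a1 (log2 -0.34, SE 0.09). The Col5a3 call was lost with limma on log2(FPKM + 1) (adjusted p = 0.168). That of Col27a1 was lost when only the libraries compared were fitted in edgeR (adjusted p = 0.0676). The Col14a1 call was lost without control replicate 1 or 2 or TNF replicate 2 or 3 (adjusted p up to 0.0991). The Col12a1 call was lost without control replicate 2 or 3 or TNF replicate 2 or 3 (up to 0.104). Both were lost without the count filter, Col14a1 also with the replicate number as a block and Col12a1 also with limma. The third gene higher with TNF, beside Col22a1 and Col9a3, was Col6a1 (log2 1.97, SE 0.59, adjusted p = 0.0245). That call was lost without any one of the control libraries (adjusted p at most 0.08), and the change was 1.07 without TNF replicate 1 (adjusted p = 0.0424). The Col6a1 call was also lost with the replicate number as a block and with only the libraries compared.

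In knockdown organoids 3 further genes changed with TNF. Col2a1 fell from 30.0 to 80.3 FPKM down to 18.0 to 25.5 (log2 -1.23, SE 0.33, adjusted p = 0.0144). That call was lost without replicate 2 of the group with both (adjusted p = 0.0513). It was also lost when only the libraries compared were fitted in edgeR (adjusted p = 0.085). Col15a1 fell to 0.929, 0.992 and 0.818 FPKM (log2 -1.65, SE 0.55, adjusted p = 0.036), a call lost without knockdown replicate 2 or 3 or any one library with both (up to 0.117). Dropping the count filter or using the replicate number as a block lost it as well. Col24a1 rose (log2 1.38, SE 0.43, adjusted p = 0.0194), a call lost without replicate 1 or 2 of either group (up to 0.0769). This call was also lost without the count filter and with only the libraries compared.

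The interaction asks whether the TNF response differed between organoids with and without RBM25 knockdown. It passed for 5 of 39 collagens, all with a less negative or more positive TNF response under knockdown, and for 0 in the other direction, where 7.54% of all genes were higher and 4.81% lower. At an unadjusted p under 0.05 the numbers were 8 and 0 in edgeR, where 4204 of the 15888 genes tested passed in either direction. DESeq2 called 5 and 0, and its share over all genes was not computed. Col4a4 fell by 1.39 with TNF alone and by 0.71 under knockdown, a difference of 0.68 (SE 0.12, adjusted p = 0.00124). Col11a2 fell by 1.13 and by 0.58, a difference of 0.56 (SE 0.10, adjusted p = 0.00132). The differences were 0.36 for Col18a1 (SE 0.09, adjusted p = 0.0107), 0.35 for Col11a1 (SE 0.08, adjusted p = 0.00766) and 0.29 for Col4a5 (SE 0.07, adjusted p = 0.00622). The number was 8 without TNF replicate 1, and the Col18a1 call was lost without replicate 1 of the group with both. The interaction also reads as the change in the knockdown effect: Col11a2, flat with knockdown alone, was 1.45-fold higher with knockdown under TNF (log2 0.53, SE 0.07, adjusted p = 4.64e-06).

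Against the shared controls, 8 genes were lower with TNF and higher with knockdown: Col11a1, Col12a1, Col18a1, Col26a1, Col4a5, Col5a3, Col9a1 and Col9a2. The share of all genes with both calls was not computed, nor were the shares for the next counts. A further 12 of the 39 passed in neither comparison with control, among them Col1a1, Col1a2, Col3a1 and the type VIII genes. Of the 39, 10 passed none of the 5 organoid tests, namely Col1a1, Col1a2, Col23a1, Col25a1, Col3a1, Col6a2, Col6a3, Col7a1, Col8a1 and Col8a2. Of the genes not tested, in the organoids Col17a1, Col19a1, Col28a1 and Col6a5 had at most 6 counts in any library, and in the ear Col10a1, Col6a4 and Col6a5 had at most 14. Col17a1, a transmembrane collagen of hemidesmosomes, had 183 counts (1.05 FPKM) in 20-month replicate 4 and 0 to 28 in the other 11 ears.

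Genes that act on collagens were read beside them. Of 18 genes for folding and hydroxylation, knockdown raised 14 and lowered 0, with a median of 0.59, against -0.03 over all genes. They included Plod1, a lysyl hydroxylase (log2 1.36, SE 0.06), P4ha1, a prolyl hydroxylase (log2 1.69, SE 0.09), and Serpinh1, the collagen chaperone (log2 0.74, SE 0.06, from 176 to 308 mean FPKM). Of 5 crosslinking genes it raised 3, with the lysyl oxidase relatives Loxl2 (log2 2.51, SE 0.18) and Loxl3 (log2 1.60, SE 0.11), and lowered Loxl4 (log2 -1.95, SE 0.25). Of 16 basement membrane partners, 11 were higher and 1 lower, with a median of 0.75. Agrn, which encodes agrin, rose by 1.81 (SE 0.06), Hspg2, the perlecan gene, by 2.02 (SE 0.10), and Pxdn, the peroxidase that crosslinks type IV collagen, by 2.02 (SE 0.06). Of 9 tested receptors 5 were higher and 1 lower, with Ddr2, a receptor kinase for fibrillar collagen, higher by 1.26 (SE 0.18). Of 7 growth factors 5 were higher and 2 lower, with Ccn2 higher by 2.80 (SE 0.18). Among 10 fibril-associated genes 6 were higher and 4 lower: Lum, a fibril-binding proteoglycan, fell by 1.55 (SE 0.12) and Ogn rose by 2.15 (SE 0.20). Of 11 genes for export and propeptide cleavage 5 were higher and 4 lower, with the procollagen C-proteinase Bmp1 higher by 1.67 (SE 0.10). The list medians not yet given were 0.57 for crosslinking, 1.13 for receptors, 0.35 for growth factors, 1.33 for fibril-associated and 0.55 for export genes. Over all genes tested, 24.4% were higher and 28.2% lower with knockdown.

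With TNF 23.3% of all genes were higher and 24.2% lower, and several lists had shares near these. Folding and hydroxylation had 5 higher and 7 lower of 18, basement membrane partners 5 and 5 of 16, and crosslinking 2 and 2 of 5. Export and cleavage had 2 higher and 3 lower of 11, with Adamts2, the procollagen N-proteinase, falling by 2.60 (SE 0.10). Of 10 fibril-associated genes 1 was higher and 6 lower, with Sparc, a collagen-binding matricellular protein, falling from a mean of 4740 to 2240 FPKM (log2 -1.11, SE 0.06). Pxdn rose by 1.92 (SE 0.06). Receptors had 2 higher and 1 lower of 9, and growth factors 2 and 3 of 7. The medians ran from -0.53 for the fibril-associated genes to 0.12 for the crosslinking genes, against -0.02 over all genes.

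In old ears, against 3 months, 12% of all genes were higher and 10.7% lower. Of these lists, 6 of 18 folding and hydroxylation genes were higher and 1 lower, among them P4ha1 (log2 0.91, SE 0.09, adjusted p = 0.000105) and Serpinh1 (log2 0.63, SE 0.12, adjusted p = 0.00385). Of 10 receptors 4 were higher and 0 lower, with Ddr1 (log2 0.44, SE 0.06), Itga1 (log2 1.00, SE 0.18) and Ddr2 (log2 0.63, SE 0.11). Of 12 fibril-associated genes 4 were higher and 1 lower, with the proteoglycan genes Prelp (log2 0.81, SE 0.12), Fmod (log2 1.52, SE 0.37) and Dcn (log2 0.66, SE 0.19). Export and cleavage had 3 higher and 1 lower of 12, with Pcolce, the enhancer of the C-proteinase, higher by 1.13 (SE 0.17). The basement membrane partners had 3 higher of 16, and crosslinking genes and growth factors 1 higher each, of 5 and 7, shares near that of all genes. The medians ran from 0 for export to 0.55 for the fibril-associated genes, against 0.01 over all genes. At 11 months 1 gene of these lists passed, P4ha2 (log2 0.85, SE 0.18, adjusted p = 0.0375).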

How the data were processed

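RNA was extracted from 12 inner ears and 12 organoid libraries and sequenced from unstranded TruSeq libraries, per the labels' protocols. Gene counts and FPKM were used as the authors deposited them, in 1 table per experiment and unit; per the submitters' processing notes the tools included HTSeq, HISAT2, DESeq2 and Trimmomatic, on mm10, with no version stated. The deposited FPKM equal each count divided by gene length and by the library's total count, so they carry no further scaling between libraries. Counts were tested with edgeR 4.0.16 (R 4.3.3; TMM factors, filterByExpr, robust quasi-likelihood F-test, 1 fit per experiment over all its groups) and adjusted by Benjamini-Hochberg over all genes tested, 15525 in the ear and 15888 in organoids; an adjusted p under 0.05 is a call. Alternatives were DESeq2 1.42.0 and its size factors, no count filter, only the libraries compared, the replicate number as a block, limma 3.58.1 on log2(FPKM + 1), and each library left out. The procedure was tested on simulated data. The biological coefficient of variation was 19.8% in the ear and 8.04% in organoids. The median change of all genes lay between -0.034 and 0.033 (log2) under both scalings.

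Collagens named with values are the 3 of highest mean FPKM per class and experiment and those called, up to 6 per class and comparison; genes of other lists are named only where called. The members and lists were chosen with earlier results of these data known. Coordinates and promoters come from RefSeq tables (GRCm38.p6, matched for all 44 genes) and exon overlaps from GENCODE vM21.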

Additional observations from a re-analysis of the deposited data

Results flagged for a closer look

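In the 60 groups of 4 ears examined, for 20 collagen genes, 5 single libraries stood far from the other 3 of their group; chance flags about 1 in 20 groups. Replicate 2 of 3 months was high for Col11a2 (146 FPKM, others 106 to 111) and for Col9a3 (45.3 FPKM, others 34.4 to 35.3). Replicate 4 of 3 months was high for Col13a1 (1.0 FPKM, others 0.509 to 0.573) and Col5a2 (7.18 FPKM, others 5.6 to 5.72), and this is also the young library with the highest Bglap (62.6 FPKM) and Col1a1 (33.5 FPKM). Replicate 1 of 11 months was high for Col4a2 (10.5 FPKM, others 8.94 to 9.18).

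The response to TNF differed between organoids with and without RBM25 knockdown for 5 collagens, by the test of the difference itself. On the log2 scale the difference was 0.68 for Col4a4, 0.56 for Col11a2, 0.36 for Col18a1, 0.35 for Col11a1 and 0.29 for Col4a5. The first 4 fell less with TNF under knockdown, and Col4a5 went from -0.18 to 0.11.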

How the results depend on the processing

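Of 103 calls of a collagen in a comparison, 77 were kept under every alternative run, 26 were lost under at least 1, and 0 changed direction. At 11 against 3 months every collagen call but that of Col15a1 was lost under at least 1. The losses given with these genes above name only libraries left out. limma also lost the calls of Col11a1, Col11a2, Col1a2, Col5a2 and Col9a2. The replicate block lost those of Col1a2, Col4a3, Col5a2 and Col9a2, and fitting only the libraries compared lost that of Col9a2. At 20 against 3 months the Col5a2 call was lost under each of these methods. Depth limits Col22a1 and Col6a4, which had 0 to 8 counts in each control and knockdown library. DESeq2 in place of edgeR gave 8 higher and 5 lower at 20 against 3 months, and 2 higher and 16 lower at 11 against 3 months. Fitting only the libraries compared gave 2 higher and 12 lower at 11 against 3 months, 3 higher at 20 against 11 months, and 26 higher and 2 lower with knockdown. limma on log2(FPKM + 1) gave 2 lower at 11 against 3 months, 3 higher at 20 against 11 months, and 1 lower in the interaction. Leaving out 1 library at a time gave 3 to 9 higher and 2 to 4 lower at 20 against 3 months, 0 to 1 higher and 1 to 5 lower at 11 against 3 months, 1 to 9 higher and 0 lower at 20 against 11 months, 2 to 5 higher and 14 to 21 lower with TNF, 16 to 20 higher and 1 lower with knockdown, 22 to 32 higher and 1 to 2 lower with knockdown under TNF, 3 to 5 higher and 10 to 14 lower with TNF under knockdown, and 4 to 8 higher and 0 to 1 lower in the interaction. The cause of these shifts was not tested.

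Same-numbered libraries had mean correlations of their deviations of -0.0655 to 0.195. The highest mean, 0.195, was between control and knockdown, with single pairs at 0.0339 to 0.292. Deviations sum to 0 within a group, so the mean for other numbers is nearly fixed by that for same numbers and gives no contrast. Between 11 and 20 months the mean for same numbers was 0.0782. With 3 or 4 pairs in each case, whether the numbers pair the libraries cannot be decided. With the replicate number as a block, 3 collagens were higher at 20 against 11 months, where the fit without it had 5; the other counts stayed within 1.5 times: 4 higher and 4 lower at 20 against 3 months, 5 lower at 11 against 3 months, 18 higher and 1 lower with knockdown, 23 higher and 1 lower with knockdown under TNF, 2 higher and 15 lower with TNF, 4 higher and 11 lower with TNF under knockdown, and 5 higher in the interaction.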

Other observations

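Some collagens with no call between ages were high in 1 ear. Col17a1, a transmembrane collagen of hemidesmosomes, had 183 counts in replicate 4 of 20 months and 0 to 28 in the other 11 ears. Col6a6 had 199 counts in replicate 1 of 20 months, 65 in replicate 2 of 11 months and 2 to 15 in the other ears. Col28a1, known from peripheral nerve, was at 2.83 FPKM in replicate 3 of 3 months and at 0.322 to 1.01 FPKM in the other 11. The mucosal epithelium markers summed to 524 CPM in replicate 4 of 20 months, 971 in replicate 1 and 1020 in replicate 2, and to 33.1 to 444 CPM in the other ears; their part in the Col17a1 counts was not tested. Beside the 3 head-to-head type IV pairs, Col9a1 and Col19a1, and Col3a1 and Col5a2, lie tail to tail on chromosome 1, with 4944 and 24624 bases between them, and Col6a6, Col6a5 and Col6a4 follow one another on chromosome 9.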
